A study of Mus musculus with 6 samples.

Results

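The genes of the mitochondrial ribosome were followed in mouse L929 cells. The mitochondrial ribosomal protein genes were taken as the protein-coding rows of the deposited gene count table whose symbol begins with Mrpl or Mrps and a number. This rule found 78 of 54532 rows, and it uses names only, not expression. Of these, 49 have Mrpl names (large subunit) and 29 have Mrps names (small subunit). Current knowledge of the ribosome's structure moves Mrps18a and Mrps30 to the large subunit. Mrps36 is now known as a component of the 2-oxoglutarate dehydrogenase complex. That leaves 51 large-subunit genes, 26 small-subunit genes and Mrps36.

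L929 is an established mouse fibroblast line, labelled wild type in every sample. The study has 3 control libraries and 3 libraries, called treated here, of cells that received the cytokine TNF-α at 10 ng/ml together with actinomycin D at 1 µg/ml for 12 hours. Actinomycin D is a DNA-binding inhibitor of transcription. No sample had either agent alone, so their parts in a difference cannot be told apart. The control samples carry the same treatment protocol text, and the groups were taken from titles and treatment labels. As no label names separate cultures, a p-value here weighs a group difference only against the spread between libraries of a group. That spread may be technical.

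Mitochondria have their own ribosome, which translates the few mRNAs of the mitochondrial genome into core subunits of the respiratory chain and of ATP synthase. Its rRNAs are made from mitochondrial DNA, while all of its proteins are encoded in the nucleus, made in the cytosol and imported. Some of these proteins have counterparts in bacterial ribosomes, and others occur only in mitochondria. The nuclear factors NRF1, GABPA (an ETS family factor) and YY1 are known regulators of many genes of mitochondrial function.

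Promoters of 69 of the 78 genes could be matched by symbol in a RefSeq table (build GRCm38.p6) covering 250 bases before to 50 bases after the start. A gene with several listed promoters counted as a match when any of them held the letters. The letters CCGGAAG, the core of the ETS and GABPA motif, occurred on either strand in 37.7% of these genes. The shares were 21.3% of 9039 tested protein-coding genes and 9.93% of all 27025 genes with a listed promoter. The letters AAGATGG, part of the YY1 motif, occurred in 18.8%, against 8.70% and 7.28%. The letters GCATGCG, part of the NRF1 motif, occurred in 11.6%, against 7.50% and 4.01%. The 3 words do not contain one another. These are matches of letters, not measured binding, and no binding data were used. The stretches shown next hold no annotated exon. They are the promoter of Mrpl52, the gene with the highest control level, which holds an ETS core and a YY1 word; that of Mrpl10, with an NRF1 word; that of Mrps22, with an ETS core; and that of Mrps2, with no match in the whole promoter. All are on GRCm38.p6, written 5′ to 3′ on the gene's strand with matches in capitals, and Mrpl10 holds overlapping matches on both strands. Mrpl52 and Mrpl10 rose in treated cells, and Mrps22 and Mrps2 fell.
Mrpl52, chr14:54426789-54426908, plus strand: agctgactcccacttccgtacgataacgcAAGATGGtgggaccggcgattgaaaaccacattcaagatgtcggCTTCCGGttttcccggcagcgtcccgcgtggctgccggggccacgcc
Mrpl10, chr11:97041440-97041559, plus strand: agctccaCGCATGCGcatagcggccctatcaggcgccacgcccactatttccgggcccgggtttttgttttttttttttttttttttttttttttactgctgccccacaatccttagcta
Mrps22, chr9:98601680-98601799, minus strand: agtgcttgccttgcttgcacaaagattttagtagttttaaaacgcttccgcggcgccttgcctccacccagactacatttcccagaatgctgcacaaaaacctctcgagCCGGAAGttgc
Mrps2, chr2:28467946-28468065, plus strand: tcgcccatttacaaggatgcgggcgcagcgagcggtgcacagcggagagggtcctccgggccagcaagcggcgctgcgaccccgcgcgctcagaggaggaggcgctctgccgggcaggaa

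Members of both directions held the ETS core: it occurred in 39.0% of 41 matched members that rose and 43.8% of 16 that fell. The YY1 word occurred in 22.0% of the first and 12.5% of the second. The NRF1 word occurred in 9.76% and 18.8%. These shares rest on 9 and 2 genes for the YY1 word and on 4 and 3 for the NRF1 word.

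Library totals ran from 16056207 to 18036322 counts. TMM factors, which scale libraries on the bulk of genes, were 1.34 to 1.53 in controls and 0.640 to 0.797 in treated libraries. Treated library 3 lay nearest the controls on the first principal component of all genes, at 77.7 against 124 and 109 for the other treated libraries and −109 to −97.0 for controls. The fibroblast label was checked on 12 markers. Their summed level was 7690 to 9964 CPM (counts scaled to library size with TMM) in controls and 25340 to 28990 CPM in treated cells. These sums depend on the TMM factors. Of 11 tested fibroblast markers 9 rose (81.8%) and 2 fell (18.2%), against 34.6% and 40.2% of all tested genes. The fibroblast marker Thy1 had 0 to 4 counts per library. Summed macrophage markers were 7.15 to 9.52 CPM and 54.9 to 70.3 CPM, with Ptprc and Adgre1 at 0 or 1 count. Of 4 tested macrophage markers 3 rose (75%) and 0 fell, with a median log2 fold change of 2.67. Of the epithelial, endothelial and lymphocyte lists, each summed to 12.8 CPM or less in every library, and Epcam, Krt5, Kdr, Cd3d and Ms4a1 were at 0. The part of any other cell type in the results was not tested.

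Most genes of the mitochondrial ribosome rose in treated cells on the TMM scale, and a smaller set fell, by up to a similar amount. Of 77 tested members, 46 rose and 18 fell by edgeR's quasi-likelihood test at a Benjamini-Hochberg adjusted p below 0.05, and 13 were not called. Among all 13290 tested genes, 34.6% were called higher and 40.2% lower. Expression changed by at least 2-fold upward in 27 of the members that rose and downward in 13 of those that fell. Of all 13290 tested genes, 3601 were called higher and 4395 lower by at least 2-fold. The log2 fold changes ran from −2.97 for Mrpl35 to 2.74 for Mrps21. Their median was 0.68, against −0.18 for all tested genes.

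The CPM values of the groups did not overlap for 43 members that were higher and 18 that were lower in treated libraries, where 35.9% of all tested genes were apart upward and 42% downward. Mrps26, Mrpl37, Mrpl58 and Mrps18a were called although their groups overlapped. Mrps7, a small-subunit protein with a bacterial counterpart, was not called although its groups were apart, with a log2 fold change of −0.35 (SE 0.20, edgeR adjusted p = 0.122). In bulk RNA, fewer cells of a kind and less RNA per cell cannot be told apart.

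**Figure D1:**
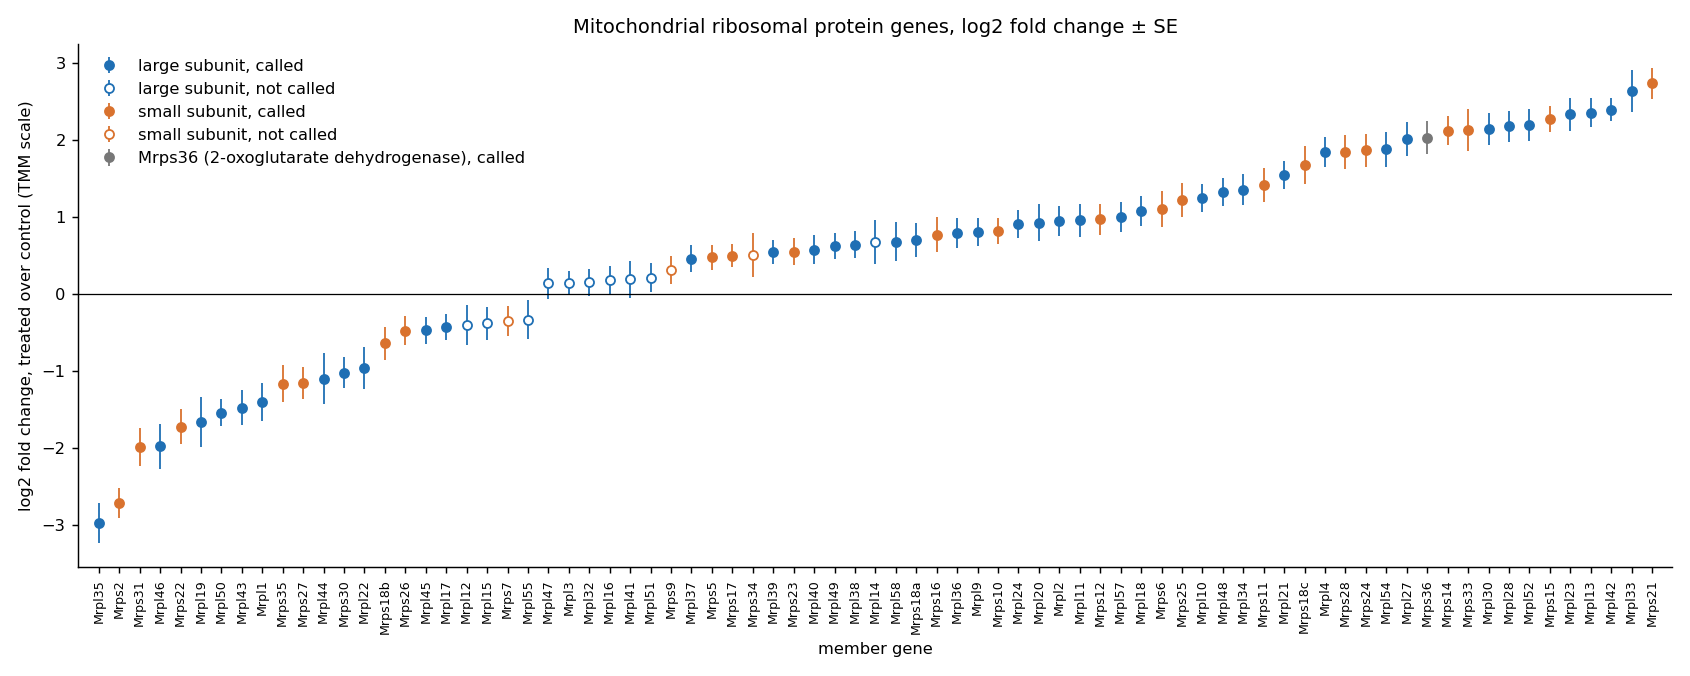
Log2 fold change, treated over control, of the 77 tested genes on the TMM scale, in ascending order, with bars of ± 1 SE; filled points passed the edgeR test. The 46 genes that rose stand at the right, up to 2.74 for Mrps21, and the 18 that fell at the left, down to −2.97 for Mrpl35; with cytosolic ribosomal protein genes held equal, none of the 46 was called higher.

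The split between rises and falls depended on the scale. A change of scaling moves all log2 fold changes by nearly the same amount, so it could hardly move the spread or gaps between genes. Scaled by library size alone, 19 members were higher and 37 lower, against 17.1% and 59.6% of all genes, and the median of all genes shifted by −1.04. With the genes of cytosolic ribosomal proteins held equal, 0 were higher in edgeR (1 at an unadjusted p below 0.05) and 64 lower, against 1.81% and 82.4%, and the median of all genes shifted by −2.39. DESeq2 with its own factors called 47 higher and 14 lower, against 36.4% and 38.1%. The members' median stood 0.85 above that of all genes on the TMM scale, 0.82 above by library size and 0.78 above with cytosolic ribosomal protein genes held equal. Every rise and fall named in the text is on the TMM scale. With cytosolic ribosomal protein genes held equal, every rise named among the members and among nuclear genes of mitochondrial translation was lost or turned, except that of Lars2. The SD of log2 fold changes across members was 1.32 to 1.33 under these scalings.

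Mitochondrial and cytosolic ribosomal protein genes moved by different amounts. Of 81 tested genes of the cytosolic ribosome, 80 rose (16 were higher and 25 lower where these genes were held equal), with a median log2 fold change of 2.42 and an SD across genes of 0.44. Across the 77 mitochondrial genes the SD was 1.33, and it was 1.87 across all genes. Members took 0.0554, 0.0588 and 0.0551 counts for each count of cytosolic ribosomal protein genes in controls, and 0.0236, 0.0226 and 0.0240 in treated libraries. The groups did not overlap, and the treated mean was 0.415 times that of controls (exact two-sided permutation test, p = 0.1, the smallest that 3 against 3 allows). This ratio is independent of library scaling.

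**Figure D2:**
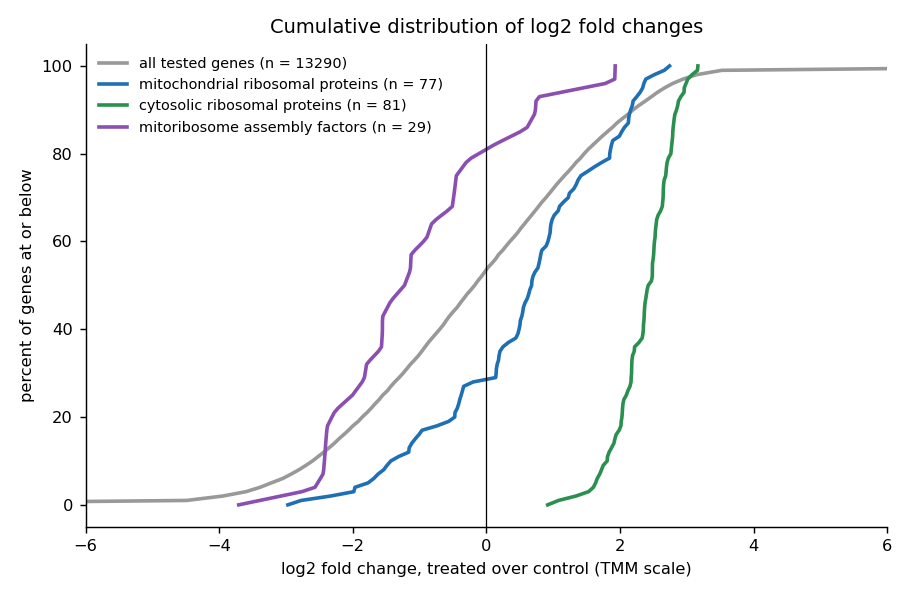
Cumulative percent of genes (vertical axis) at or below each log2 fold change, treated over control on the TMM scale (horizontal axis). The curve of 77 mitochondrial ribosomal protein genes has its median at 0.68, between those of 29 assembly factor genes (−1.23) and 81 cytosolic ribosomal protein genes (2.42), and it is wider than the cytosolic one.

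As a share of all counts the members did not differ beyond the spread between libraries. They took 0.474%, 0.428% and 0.442% of counts in controls and 0.529%, 0.488% and 0.430% in treated libraries. The groups overlapped, since treated library 3 lay within the range of controls (means 0.448% ± 0.024 and 0.482% ± 0.050, SD, n = 3; exact permutation p = 0.3, 0.45 after Benjamini-Hochberg adjustment over 3 shares). Large-subunit genes took 0.306% ± 0.015 and 0.341% ± 0.038 (SD, n = 3; exact permutation p = 0.3, adjusted 0.45). Small-subunit genes took 0.139% ± 0.0089 and 0.137% ± 0.011 (SD, n = 3; exact permutation p = 0.9, adjusted 0.9).

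The levels of the members were spread more widely in treated libraries. Each library gives 1 value for this spread, the SD over members of log2 FPKM (counts per length, on the authors' scale). It was 1.15, 1.09 and 1.11 in controls and 2.03, 2.06 and 1.97 in treated libraries, with no overlap (exact permutation p = 0.1). With the length of the principal transcript in place of the deposited length, the means were 1.22 and 2.24. Mean FPKM ran from 2.81 to 86.9 in controls, a 30.9-fold range with a median of 13.4, and from 0.380 to 612 in treated cells, with a median of 25.9. Across members, log2 CPM correlated at 0.975 to 0.989 between libraries of the same group and at 0.600 to 0.676 between groups (Pearson's r over 77 genes, a description).

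**Figure D3:**
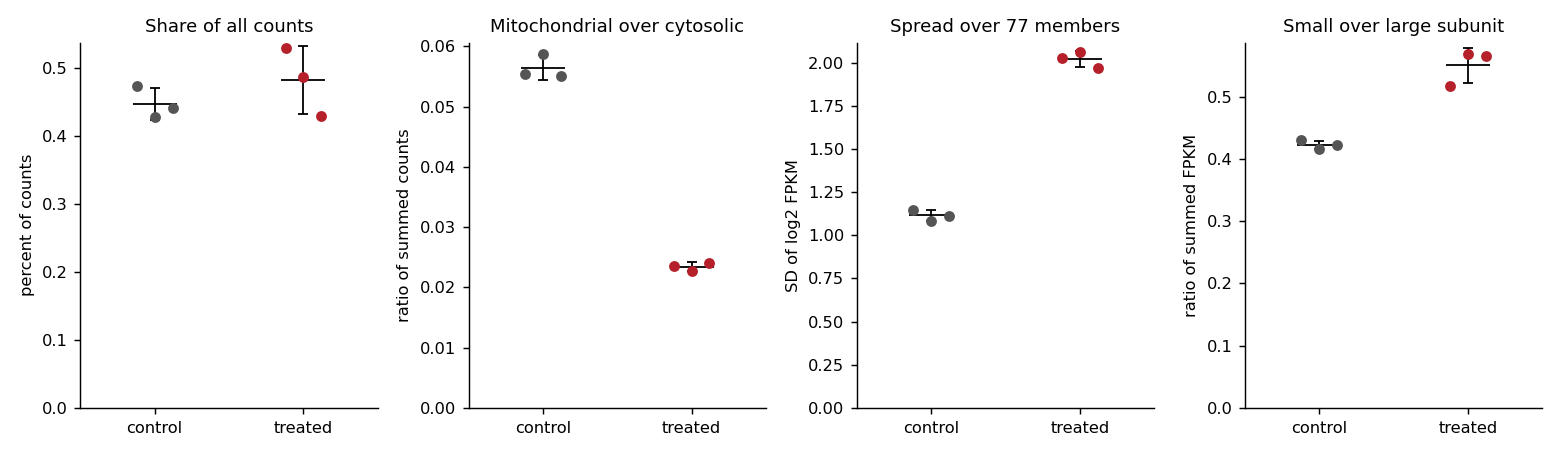
For each library (points, with mean ± SD of 3), the share of all counts taken by members in percent, the ratio of member counts to cytosolic ribosomal protein counts, the SD of log2 FPKM over members, and the ratio of summed FPKM of small-subunit to large-subunit genes. The shares overlap; the ratio to cytosolic genes (means 0.0564 and 0.0234) and the spread (1.12 and 2.02) do not; the subunit ratio changes direction with the gene length used.

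Both subunits held rises and falls in similar proportion. Of 50 tested large-subunit genes 29 rose (58%) and 11 fell (22%), with a median log2 fold change of 0.66. Of 26 small-subunit genes 16 rose (61.5%) and 7 fell (26.9%), also with a median of 0.66. Among all tested genes, 34.6% rose and 40.2% fell. By library size alone, 11 large-subunit genes were higher and 25 lower, and 7 and 12 of the small subunit. The shares of all genes were then 17.1% and 59.6%. The ratio of summed FPKM of small to large subunit genes was 0.423 ± 0.0068 in controls and 0.550 ± 0.028 in treated cells (SD, n = 3; exact permutation p = 0.1). With the principal transcript length the ratio was 0.384 ± 0.0069 and 0.372 ± 0.019 (exact permutation p = 0.4, n = 3), and with plain counts 0.454 ± 0.0080 and 0.404 ± 0.013 (exact permutation p = 0.1, n = 3). The direction of this ratio therefore followed the length used.

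Within the small subunit, genes with bacterial counterparts and genes found only in mitochondria gave different counts. The classes follow the systematic names of ribosomal proteins, which treat Mrps18c as the counterpart of S18 and give Mrps18a and Mrps18b, though related to S18, names of their own. Of 16 with bacterial counterparts 13 rose and 1, Mrps2, fell, with a median log2 fold change of 1.04. Of 10 found only in mitochondria 3 rose (Mrps33, Mrps25 and Mrps23) and 6 fell (Mrps31, Mrps22, Mrps35, Mrps27, Mrps18b and Mrps26), with a median of −0.56. In the large subunit the figures were 17 rises and 5 falls of 30 (median 0.86) and 12 rises and 6 falls of 20 (median 0.56). As shares, the small-subunit classes gave 81.2% rises and 6.25% falls, and 30% and 60%. The large-subunit classes gave 56.7% and 16.7%, and 60% and 30%. Among all tested genes the shares were 34.6% and 40.2%. With Mrps18a and Mrps18b counted as bacterial counterparts, an alternative added after the data were seen, the small-subunit classes gave 13 rises and 2 falls of 17 (median 0.97), and 3 rises and 5 falls of 9 (median −0.47); the large-subunit ones gave 18 and 5 of 31, and 11 and 6 of 19. The difference between these classes was not tested. Transcript length moved with the classes: the median principal transcript was 1037 and 1424 bases in the small-subunit classes and 1221 and 1461 bases in the large-subunit ones, and its part in the result was not tested. With an offset for the deposited gene length, the small-subunit classes gave 10 rises and 2 falls of 16, and 2 rises and 5 falls of 10. By library size alone they gave 6 rises and 5 falls, and 1 rise and 7 falls. Of all genes, 33.6% were higher and 36.8% lower with the offset, and 17.1% and 59.6% by library size.

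The strongest rise was in the small subunit. Mrps21 (ENSMUSG00000054312, chr3:95862634-95871519), the counterpart of bacterial S21, stood at 77.8, 55.5 and 65.0 CPM in controls and 491, 489 and 346 CPM in treated libraries. All treated values were far above all controls (log2 fold change 2.74, SE 0.20, edgeR adjusted p = 9e-07). It had the second highest level of all members in controls, at a mean of 86.3 FPKM, and the highest in treated cells, at 612 FPKM. Mrps15 (chr4:126046925-126055532), the counterpart of bacterial S15, an early-binding protein of the small subunit, went from 57.0, 46.2 and 46.7 to 257, 271 and 199 CPM. Its groups were apart (log2 fold change 2.28, SE 0.17, edgeR adjusted p = 1.1e-06). Other small-subunit rises were Mrps33 (2.13), Mrps14 (2.12), Mrps24 (1.87) and Mrps28 (1.85), as log2 fold changes. Mrps24 overlaps Urgcp on the same strand, which held 2121 counts against 9336 for Mrps24 and changed by −4.13.

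In the large subunit the leading rises were those of Mrpl33, Mrpl42, Mrpl13 and Mrpl23. Mrpl33 (chr5:31596935-31664384), the counterpart of bacterial L33, stood at 51.5, 42.8 and 49.8 CPM in controls and 411, 311 and 175 CPM in treated libraries. Treated library 3 had well under the value of library 1, yet every treated value exceeded every control (log2 fold change 2.64, SE 0.28, edgeR adjusted p = 1.15e-05). Of the words of Mrpl33, 30.3% recur in the overlapping row Gm43809, which held 3 counts over all libraries. Mrpl42 (chr10:95480805-95501940), a protein found only in mitochondrial ribosomes, went from 80.0, 80.4 and 85.5 to 419, 474 and 402 CPM. The treated values lay close together (2.40, SE 0.15, edgeR adjusted p = 4.86e-07).

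Mrpl13 (chr15:55534094-55557748), the counterpart of bacterial L13, had 68.8, 60.2 and 59.6 CPM in controls and 375, 349 and 243 CPM in treated libraries (log2 fold change 2.36, SE 0.19, edgeR adjusted p = 1.37e-06). It overlaps Mtbp on the opposite strand, which shares 23.9% of the 50-base words of its transcript and changed by −2.09. Mrpl23 (chr7:142532686-142540747), the counterpart of L23 at the exit of the peptide tunnel, had 69.2, 50.2 and 59.4 CPM in controls and 360, 325 and 217 CPM in treated libraries (2.33, SE 0.21, edgeR adjusted p = 3.36e-06). As 76.4% of its words recur in the row Mrpl23-ps1, its level is uncertain; that row itself held 18 to 51 counts per library.

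Mrpl52 (chr14:54426909-54429756), found only in mitochondrial ribosomes and the member with the highest control FPKM (86.9), went from 115, 88.1 and 96.4 to 563, 478 and 334 CPM. The groups were apart (log2 fold change 2.20, SE 0.21, edgeR adjusted p = 4.31e-06). Mrpl54, at rank 3 with a mean control FPKM of 68.7, went from 68.2, 50.9 and 57.2 to 286, 213 and 151 CPM (1.88, SE 0.23, edgeR adjusted p = 2.58e-05). Mrpl2, the counterpart of L2 and at rank 4 with 63.1 FPKM, went from 89.6, 67.2 and 72.8 to 172, 162 and 110 CPM (0.95, SE 0.20, edgeR adjusted p = 0.00101). The rise of Mrpl2 was the least firm of these: it was −0.11 by library size alone and −0.22 with the gene length offset. Further large-subunit rises above 2 were those of Mrpl28 (2.18), Mrpl30 (2.15) and Mrpl27 (2.01), as log2 fold changes.

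**Figure D4:**
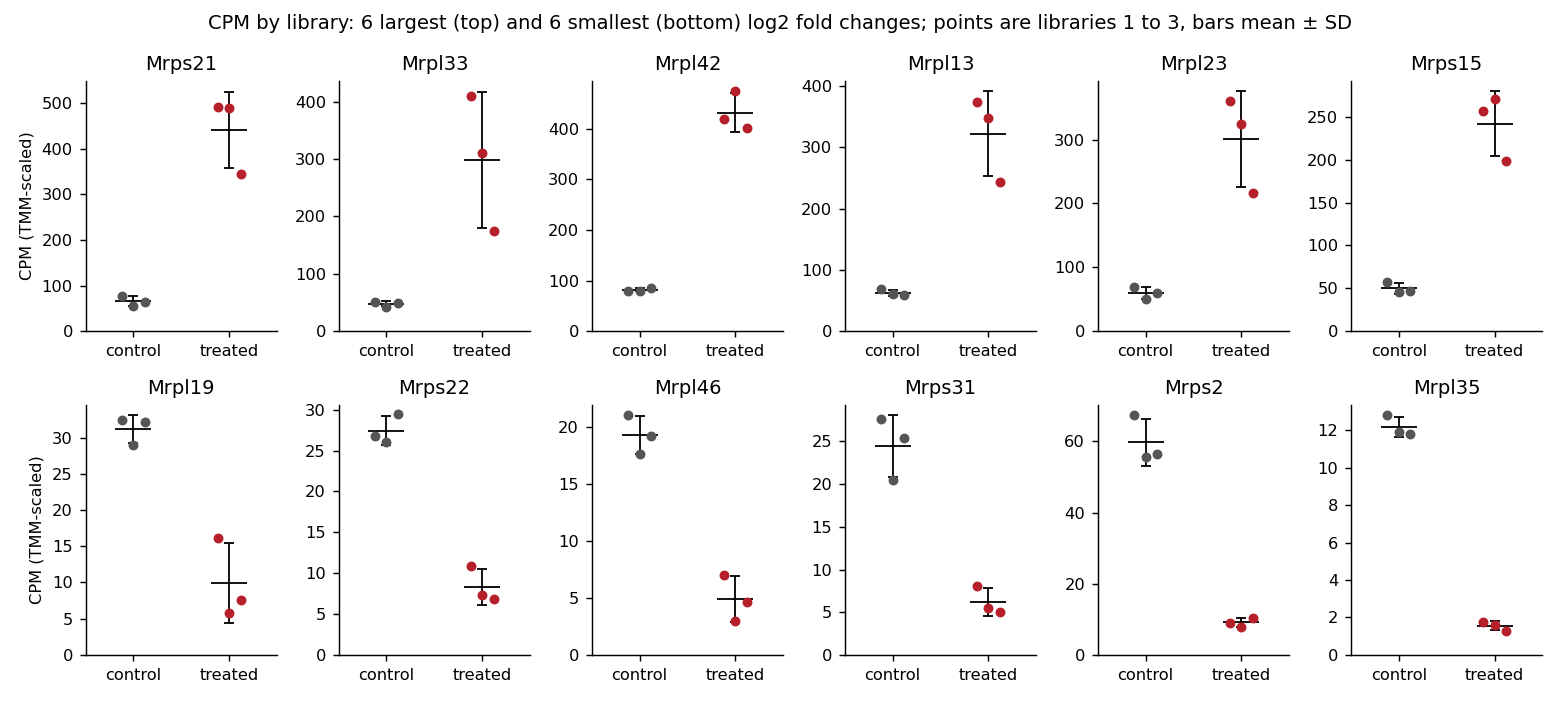
TMM-scaled CPM in each library (points, replicates 1 to 3 from left to right) with mean ± SD of 3, for the 6 largest rises (top) and 6 largest falls (bottom); each panel has its own axis from 0. In all 12 genes the treated points lie apart from the controls on this scale, from 346 to 491 CPM for Mrps21 and from 1.298 to 1.77 CPM for Mrpl35; with cytosolic ribosomal protein genes held equal, no rise of the top row is called.

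Mrpl35 fell most and also had the lowest control FPKM of the tested members (2.81). Mrpl35 (chr6:71812997-71826969), the counterpart of bacterial L35, stood at 12.8, 11.9 and 11.8 CPM in controls and 1.77, 1.59 and 1.298 CPM in treated libraries. This was 291 to 309 counts against 17 to 20 (log2 fold change −2.97, SE 0.26, edgeR adjusted p = 2.51e-06). Mrps2 (chr2:28468066-28471178), the counterpart of S2, stood at 67.3, 55.5 and 56.4 CPM in controls and 9.01, 7.87 and 10.5 CPM in treated libraries. Its groups were far apart (−2.71, SE 0.19, edgeR adjusted p = 7.9e-07). The distance between Mrps21 and Mrpl35 was 5.71 on the log2 scale, and a change of library scaling could hardly move it.

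Mrps31 (chr8:22411361-22429665), a small-subunit protein found only in mitochondria, went from 27.6, 20.5 and 25.4 to 8.04, 5.48 and 5.04 CPM (log2 fold change −1.99, SE 0.24, edgeR adjusted p = 2.44e-05). Mrps22 (chr9:98588730-98601660), of the same class, went from 26.8, 26.0 and 29.4 to 10.9, 7.34 and 6.79 CPM (−1.72, SE 0.23, edgeR adjusted p = 3.92e-05). In both, treated library 1 was the highest of the treated values and still below every control. Mrpl46 (chr7:78775236-78783531), a large-subunit protein found only in mitochondria, went from 21.1, 17.7 and 19.2 to 7.06, 3.01 and 4.66 CPM (−1.98, SE 0.29, edgeR adjusted p = 1e-04). Mrpl19 (chr6:81957851-81965958), the counterpart of L19, went from 32.4, 28.9 and 32.1 to 16.2, 5.83 and 7.63 CPM (−1.66, SE 0.33, edgeR adjusted p = 0.000961). Its fall was uneven among treated libraries, and 40.3% of its words recur in other genes, mostly the overlapping Gcfc2 (log2 fold change −2.95).

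At the low end of control FPKM, Mrpl48 (2.91), Mrps35 (3.26) and Mrps25 (3.47) followed Mrpl35. Mrpl48 went from 27.2, 21.9 and 24.7 to 73.6, 59.4 and 53.1 CPM and rose (log2 fold change 1.33, SE 0.18, edgeR adjusted p = 5.4e-05). The call of Mrpl48 was lost by library size alone (0.28). It overlaps Rab6a on the opposite strand, which held 5150 counts against 4018 for Mrpl48 and changed by −1.44. Mrps35 went from 32.9, 26.9 and 27.8 to 17.4, 12.6 and 9.08 CPM and fell (−1.16, SE 0.24, edgeR adjusted p = 0.00115), a call that was lost with the gene length offset (−0.26). Low level thus went with both directions. Mrps25 went from 26.7, 21.8 and 22.5 to 70.6, 55.4 and 39.5 CPM and rose (1.22, SE 0.22, edgeR adjusted p = 0.000413), but 73.9% of its words lie in Nr2c2, which overlaps it on the opposite strand and changed by −2.73. The call of Mrps25 was also lost by library size alone (0.16).

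The order of levels depends on the length by which counts are divided. The deposited length equals the union of annotated exons for 73 of the 78 genes, with a median of 2214 bases, while the median principal transcript has 1302. For Mrpl33 the deposited length is 7326 bases and the principal transcript 478. Mrpl33 ranked 67 of the tested members by mean control FPKM and 4 by control CPM per kilobase of principal transcript; Mrpl42 ranked 25 and 3. Mrpl52 and Mrps21 were first and second by both.

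The Mrps18 paralogues, 3 proteins related in sequence to bacterial S18, had different values. Mrps18c, a small-subunit protein, went from 9.36, 8.67 and 9.76 to 36.6, 32.6 and 19.9 CPM (log2 fold change 1.68, SE 0.24, edgeR adjusted p = 8.37e-05). Mrps18b, also of the small subunit, went from 36.4, 29.9 and 31.6 to 27.5, 18.1 and 17.3 CPM (−0.64, SE 0.21, edgeR adjusted p = 0.0186); 63.7% of its words recur in other genes, mostly the antisense row Gm16279 (−1.89, not called). Mrps18a, of the large subunit, went from 48.1, 35.5 and 37.1 to 78.9, 72.5 and 46.0 CPM (0.71, SE 0.22, edgeR adjusted p = 0.0126). Its groups overlapped, as treated library 3 lay below control library 1. The call of Mrps18a was lost without control replicate 2 or 3 or treated replicate 1 or 2 (0.49 to 0.62), and that of Mrps18b without control replicate 1 or treated replicate 2 and with median-ratio or upper-quartile factors or DESeq2 (−0.61 to −0.47). The call of Mrps18c was lost with the gene length offset (0.42).

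Mrps30, the other large-subunit protein with a small-subunit name, went from 33.2, 26.3 and 27.5 to 14.0, 17.2 and 11.8 CPM and fell (log2 fold change −1.02, SE 0.21, edgeR adjusted p = 0.00089), a call lost with the gene length offset (−0.32). Mrps36, the dehydrogenase component, went from 16.6, 14.8 and 13.4 to 72.9, 64.9 and 45.8 CPM and rose (2.03, SE 0.21, edgeR adjusted p = 6.59e-06). It lay among the strongest rises, though it is not a ribosomal protein, and 36.2% of the words of its transcript recur elsewhere, mainly in the row Mrps36-ps1.

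Mrpl10 and Mrpl12 form the stalk of the large subunit, where translation factors bind. Mrpl10, the stalk base, went from 56.9, 38.6 and 47.1 to 119, 123 and 95.7 CPM and rose (log2 fold change 1.244, SE 0.18, edgeR adjusted p = 9.33e-05). The call of Mrpl10 was lost by library size alone (0.20). Mrpl12, which Mrpl10 carries and which is also known to bind the mitochondrial RNA polymerase, stood at 84.5, 60.8 and 68.5 CPM in controls and 75.9, 50.8 and 34.9 CPM in treated libraries. Its groups overlapped and it was not called (−0.40, SE 0.26, edgeR adjusted p = 0.178). Without treated replicate 1 it was called lower (−0.81), as it was with no filter (−0.57), by library size alone (−1.48) and with the gene length offset (−1.36). The difference between the stalk genes was not tested.

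The rest of the members can be given by range. The rises not yet given ran from Mrpl4 (log2 fold change 1.84) and Mrpl21 (1.55) down to Mrpl37 (0.46). Calls at the low end were less firm: those of Mrpl37, Mrpl40, Mrpl58, Mrps5 and Mrps23 were each lost without control replicate 2 or 3 or treated replicate 1 or 2. By library size alone 8 of the 46 were called lower, namely Mrpl37 (−0.59), Mrps5 (−0.57), Mrps17 (−0.54), Mrps23 (−0.51), Mrpl39 (−0.50), Mrpl40 (−0.48), Mrpl49 (−0.43) and Mrpl38 (−0.41). The other falls were those of Mrpl50 (−1.54), Mrpl43 (−1.48), Mrpl1 (−1.40), Mrps27 (−1.15), Mrpl44 (−1.10), Mrpl22 (−0.96), Mrps26 (−0.47), Mrpl45 (−0.47) and Mrpl17 (−0.42). The calls of Mrps26, Mrpl45 and Mrpl17 were lost with median-ratio or upper-quartile factors, DESeq2, log2 FPKM and protein-coding genes only, and without control replicate 1 or 3. Mrpl45 is known to tether the ribosome to the inner membrane. When each library was left out in turn, 37 of the 46 rises and 14 of the 18 falls were called in every run. The matching count over all genes is not given here, so this is not read as a trait of the members. The members not called were Mrpl14, Mrps34, Mrps9, Mrpl51, Mrpl41, Mrpl16, Mrpl32, Mrpl3, Mrpl47, Mrpl55, Mrps7, Mrpl15 and Mrpl12, between 0.68 and −0.40. Mrpl53 was listed at 0 in all libraries and was not tested; 100% of its 50-base words recur in the row Gm42688, so the zero gives no level for this gene.

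Treated library 3 showed the rises least. It had the lowest treated CPM in 45 of the 46 members that rose, and treated library 1 had the highest in 39. Among the 18 members that fell, treated library 3 was the highest in 2 and the lowest in 13. Without treated replicate 3, 50 members were higher and 18 lower, against 33.2% and 41.8% of all genes, and these included all 46 and all 18.

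The length of the principal transcript moved with the fold changes in members as in all genes. The principal transcript had a median of 1088 bases in members that rose, 2097 in those that fell and 1418 in those not called. Among all tested protein-coding genes the medians were 1974 in those higher and 3806 in those lower. Spearman's rank correlation between transcript length and log2 fold change was −0.54 across 77 members and −0.47 across 11440 protein-coding genes. With deposited gene length it was weaker in members, at −0.23, against −0.42 across 13290 tested genes. These correlations describe genes measured in the same libraries. The pentamer ATTTA, a word of AU-rich elements, occurred in the 3′ untranslated region of 47.8% of members that rose and 72.2% of those that fell, against 51.1% and 77.1% in all genes.

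By bins of deposited length, the members' medians kept near those of all genes in short genes and lay above them in long ones. Among genes of 1000 to 2000 bases the median log2 fold change was 0.95 in 23 members and 0.96 in all genes. In the bin of 3000 to 5000 bases it was 0.21 in 15 members and −0.25 in all genes, and above 5000 bases 0.40 in 14 members and −0.99 in all genes. With an offset for the length trend, 34 members were higher and 22 lower, against 33.6% and 36.8% of all genes. Of the main calls, 31 rises and 14 falls remained, and 2 rises were called lower instead, Mrpl36 (−0.40) and Mrps23 (−0.37). The members' median then stood 0.47 above that of all genes. Bins and offset both used the deposited length, so they do not account for the length of the principal transcript.

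**Figure D5:**
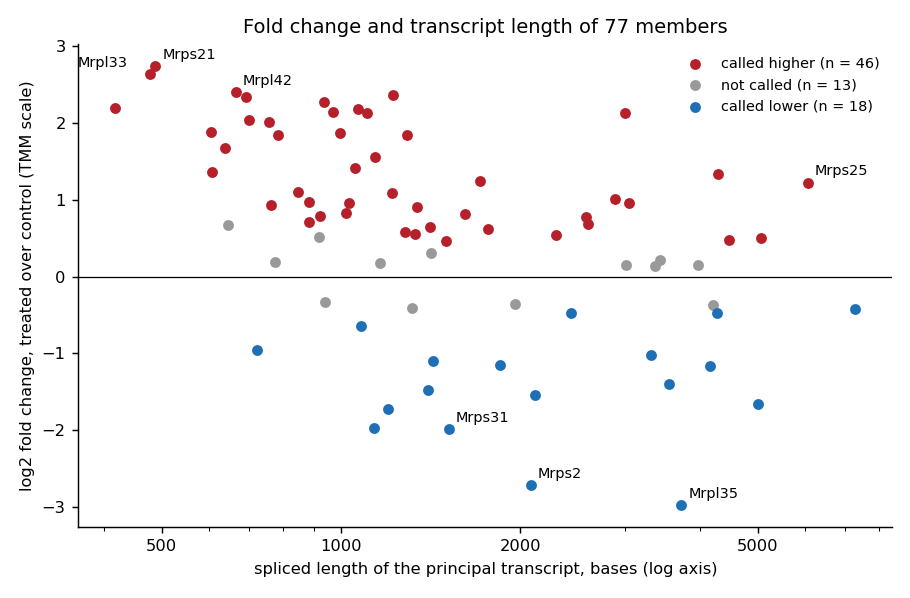
Log2 fold change on the TMM scale (vertical axis) against the length of the principal transcript in bases (log axis) for 77 members, coloured by call. The strongest rises, Mrps21, Mrpl33 and Mrpl42, have transcripts of 488, 478 and 666 bases, and Mrpl35, which fell most, has 3721; Mrps25 rose with 6073 bases.

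The RNA partners of these proteins, the mitochondrial rRNAs, were higher in treated cells by log2 fold changes of 6.77 (mt-Rnr1, small subunit) and 5.48 (mt-Rnr2, large subunit) on the TMM scale. These rRNA values are given on this scale only, and the part of library preparation in them was not tested. Of 12 tested mRNAs of the mitochondrial genome 5 rose (41.7%) and 0 fell, against 34.6% and 40.2% of all tested genes. The median over these mRNAs was 0.46. By library size alone 4 were lower, with the gene length offset 7, and with cytosolic ribosomal protein genes held equal all 12. Of all genes, 59.6%, 36.8% and 82.4% were lower in these runs.

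Ribosomal proteins that carry other names were also mixed, with 3 rises (50%) and 2 falls (33.3%) among 6 tested genes. Among all tested genes the shares were 34.6% and 40.2%. With cytosolic ribosomal protein genes held equal all 6 were lower, as were 82.4% of all genes. Chchd1 (51.3, 41.3 and 42.8 CPM in controls; 238, 178 and 130 CPM in treated libraries) and Aurkaip1 (58.6, 43.3 and 48.1; 239, 195 and 135 CPM), both of the small subunit, rose by log2 fold changes of 2.01 and 1.93. Dap3, a GTP-binding protein of the small subunit first known from cell death screens, went from 105, 83.5 and 89.9 to 261, 243 and 199 CPM (1.34, SE 0.16, edgeR adjusted p = 2.25e-05). Ptcd3, an RNA-binding small-subunit protein, went from 27.0, 38.3 and 34.0 to 9.71, 11.3 and 13.4 CPM and fell (−1.53, SE 0.21, edgeR adjusted p = 5.99e-05). Gadd45gip1, of the large subunit, fell by 0.66 on the log2 scale, a call lost without control replicate 1 (−0.57) and with median-ratio factors (−0.53).

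Genes that build the ribosome mostly fell. Of 29 tested assembly factors 5 rose (17.2%) and 21 fell (72.4%), against 34.6% and 40.2% of all tested genes. The median log2 fold change of these factors was −1.23. Mrm3, an rRNA methyltransferase, went from 12.1, 11.2 and 11.2 to 0.795, 1.33 and 0.534 CPM (−3.71, SE 0.34, edgeR adjusted p = 2.97e-06). Rpusd4, a pseudouridine synthase, fell by 2.58 on the log2 scale, with no overlap between groups. The rises were led by Ndufab1 (1.93), the mitochondrial acyl carrier protein, and Mpv17l2 (1.92), an inner-membrane protein needed for assembly.

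Among 16 tested translation factors, which work with the ribosome, 5 rose (31.2%) and 7 fell (43.8%), shares near 34.6% and 40.2% of all tested genes. By library size alone 14 were lower, as were 59.6% of all genes. The elongation factor Tsfm went from 76.4, 53.5 and 62.4 to 149, 145 and 92.5 CPM (log2 fold change 1.01, SE 0.21, edgeR adjusted p = 0.00123). Its partner Tufm was called higher at 0.57 (SE 0.18, edgeR adjusted p = 0.0141), a call lost when any of 4 single libraries was left out (control replicate 2 or 3, treated replicate 1 or 2; 0.41 to 0.54). Both were below 0 by library size alone. The initiation factor Mtif3 went from 15.9, 13.2 and 14.1 to 1.15, 1.06 and 1.37 CPM (−3.58, SE 0.27, edgeR adjusted p = 1.01e-06), and the translational activator Taco1 fell by 2.05 on the log2 scale. Slirp, an RNA-binding protein that stabilises mitochondrial mRNAs, was called higher at 3.60, but this rested on treated library 1 (16.9, 2.30 and 0.687 CPM); without it the value was 1.36 and not called.

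Of 17 mitochondrial aminoacyl-tRNA synthetase genes, whose enzymes load the tRNAs, 2 rose and 12 fell, 11.8% and 70.6% against 34.6% and 40.2% of all tested genes, with a median log2 fold change of −1.02. With the gene length offset 5 were higher and 8 lower, and the median below that of all genes went from −0.84 to −0.34. Lars2, for leucine, went from 118, 101 and 111 to 795, 1187 and 1119 CPM (3.23, SE 0.20, edgeR adjusted p = 4.78e-07), and Cars2, for cysteine, rose by 1.02. The largest falls were those of Pars2 (−2.68), for proline, and Yars2 (−2.65), for tyrosine. Lars2 was the only gene of all these lists still called higher with cytosolic ribosomal protein genes held equal.

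Genes for making and degrading mitochondrial RNA and DNA gave 3 rises (16.7%) and 10 falls (55.6%) among 18 tested, with a median of −0.79. Among all tested genes, 34.6% rose and 40.2% fell. Polrmt, the mitochondrial RNA polymerase, went from 39.5, 32.2 and 36.2 to 2.47, 3.01 and 3.05 CPM (log2 fold change −3.66, SE 0.22, edgeR adjusted p = 4.32e-07). Tfam, which packages mitochondrial DNA and starts its transcription, went from 41.9, 42.6 and 39.9 to 6.36, 5.30 and 5.19 CPM (−2.89, SE 0.19, edgeR adjusted p = 6.09e-07). The poly(A) polymerase Mtpap fell by 3.67 on the log2 scale. The rises were led by Hsd17b10 (2.22), a subunit of mitochondrial RNase P, and Rexo2 (2.04), an exonuclease of short RNAs.

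Transcriptional regulators of mitochondrial genes were lower, with 9 falls (90%) among 10 tested, against 40.2% of all tested genes. The regulators' log2 fold changes ran from −4.93 to −0.82. Nrf1 went from 42.1, 35.3 and 41.9 to 8.30, 4.51 and 6.79 CPM (log2 fold change −2.60, SE 0.24, edgeR adjusted p = 3.27e-06). Yy1 went from 70.8, 63.1 and 66.9 to 17.2, 15.1 and 22.9 CPM (−1.86, SE 0.19, edgeR adjusted p = 6.75e-06). Gabpa went from 34.6, 55.2 and 47.7 to 16.0, 17.7 and 33.4 CPM (−1.03, SE 0.29, edgeR adjusted p = 0.00818), with treated library 3 just below the lowest control, and its call was lost without treated replicate 2 and with the gene length offset. The coactivators Pprc1 (−4.00) and Ppargc1b (−4.93) fell most. The members whose promoters hold the words of these factors went both ways, as given above.

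Neighbouring starts could carry opposite changes. Mrps11 and Mrpl46 lie head to head, and this pair was chosen after its values were seen. Mrps11 (chr7:78783119-78792989), the counterpart of S11, went from 28.6, 19.7 and 21.1 to 71.5, 67.8 and 45.9 CPM and rose (log2 fold change 1.42, SE 0.22, edgeR adjusted p = 0.000143), while Mrpl46 fell by 1.98. The annotated spans overlap on opposite strands. The 29 bases at chr7:78783090-78783118 that no annotated exon covers hold none of the 3 words and are shown on the strand of Mrps11.
Mrps11 and Mrpl46: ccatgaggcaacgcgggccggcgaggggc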

How the data were processed

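RNA-seq of 6 L929 libraries, 3 control and 3 treated, was analysed. The authors deposited whole-number counts per gene and FPKM values; each FPKM is a count over the gene length (in bases, of type other, per the file headers), multiplied by 1 constant for the library. Relative to scaling by the library total, that constant was 0.635 to 0.719 for controls and 1.22 to 1.64 for treated libraries. The submitters' processing notes name the builds mm10 and GRCm38 and the tools DESeq2 1.24.0, RSEM 1.3.1 and HISAT2 2.1.0, without saying what each did. No source used here states whether counting used strand, which leaves overlapping and near-identical genes uncertain. Of 78 members checked, 17 share over 20% of their 50-base words with other genes. A listed gene with at least 10% of the member's counts overlaps 20 members. Not all of these are marked in the text. Coordinates come from the deposited table.

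Rows were filtered with filterByExpr, scaled by TMM and tested with edgeR 4.0.16 (glmQLFit, robust; glmQLFTest) in R 4.3.3, with Benjamini-Hochberg adjustment over 13290 genes and a threshold of 0.05. CPM are TMM-scaled. The SE is the log2 fold change over the square root of the F statistic. Library measures were tested by exact two-sided permutation. Alternatives were other scaling, filters, DESeq2 1.42.0, limma 3.58.1, FPKM, a replicate block, a length offset and leaving out each library. The fit was also run on simulated counts in which a small set of genes changed, balanced between rises and falls. As most genes changed here, that run cannot show which scaling is right.

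The members and lists were chosen with earlier results of these data known. Values per library are given for the 6 largest and 6 smallest log2 fold changes, the 4 highest and 4 lowest control FPKM, the Mrps18 paralogues, Mrps30, Mrps36, Mrpl10 and Mrpl12; other lists name up to 2 called rises and 2 called falls, plus Nrf1, Gabpa, Yy1, Tufm, Tfam, Dap3 and Ptcd3. Transcripts and exons came from GENCODE on GRCm38, promoters from RefSeq. Words are 50 bases long. Figures used matplotlib 3.10.9.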

Additional observations from a re-analysis of the deposited data

How the results depend on the processing

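The direction of member calls depended on scaling: by library size alone 19 were higher and 37 lower (all genes, 2276 higher; other mitochondrial lists, 8 higher), and with cytosolic ribosomal protein genes held equal 0 were higher and 64 lower (all genes, 241 and 10953; other lists, 1 and 83). The main values were 46 and 18 members, 4604 and 5337 genes, and 18 and 52 list genes. Under the other scalings, filters and tools, members ran from 41 to 49 higher and from 14 to 21 lower, and with the length offset 34 and 22. Median-ratio and upper-quartile factors shifted the median of all genes by 0.11 and 0.16. The members' median stood above that of all genes in every alternative run, from 0.47 with the length offset to 1.18 without treated replicate 3. Scaling alone could hardly move this gap.

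Leaving out each library gave 38 to 50 members higher and 14 to 20 lower, 4125 to 4564 genes higher and 4928 to 5737 lower, 13 to 17 list genes higher and 43 to 56 lower, and medians 0.69 to 1.18 above all genes. Differences of shares (treated minus control, percent of counts) were 0.0110 to 0.0608 for members, 0.0162 to 0.0544 for large-subunit genes and −0.00698 to 0.00405 for small-subunit genes. The last turned from −0.00192 to 0.00310 without control replicate 1, 0.00405 without treated replicate 3 and 0.00328 over protein-coding counts, all far from any call. The small to large ratio differed by 0.119 to 0.144 and the spread by 0.882 to 0.929. Added after the data were seen, other lengths turned the ratio difference to −0.0123 (principal transcript) and −0.0503 (no length).

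Among the genes given library by library or named for the lists, log2 fold changes with cytosolic ribosomal protein genes held equal turned for Mrpl42 (−0.015), Mrpl13 (−0.086), Mrpl23 (−0.10), Mrps15 (−0.15), Mrpl52 (−0.24), Mrpl54 (−0.57), Mrpl2 (−1.48), Mrpl48 (−1.09), Mrps25 (−1.23), Mrps18a (−1.73), Mrps18c (−0.78), Mrps36 (−0.41), Mrpl10 (−1.16), Chchd1 (−0.44), Aurkaip1 (−0.52), Ndufab1 (−0.53), Mpv17l2 (−0.52), Tsfm (−1.43), Cars2 (−1.35), Hsd17b10 (−0.22), Rexo2 (−0.38), Tufm (−1.84) and Dap3 (−1.08). By library size alone they turned for Mrpl2 (−0.11), Mrps18a (−0.35), Tsfm (−0.054), Cars2 (−0.0057) and Tufm (−0.48), and 8 other rises of members were called lower, from Mrpl38 (−0.41) to Mrpl37 (−0.59). In that run the calls of Mrpl10 (0.20), Mrpl48 (0.28), Mrps25 (0.16) and Slirp (2.47) were lost without a turn. The length offset turned Mrpl2 (−0.22; −0.23 with the replicate block) and Tufm (−0.059; −0.058 with the block); of the other members it turned the calls of Mrpl36 (−0.40) and Mrps23 (−0.37) to lower, and with the block that of Mrpl17 to higher (0.39). The cause was not tested.

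Same-numbered libraries did not deviate together (correlations 0.22, −0.14 and 0.029), so the numbers were not taken as pairs. The replicate block gave 48 members higher and 19 lower, among them all 46 and 18 and, as a further fall, Mrpl12 (−0.46), and not every library correlated best with its own number. No single agent, protein level or absolute RNA amount was measured.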

Other observations

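Of the 78 genes, 33 have a head-to-head neighbour, a protein-coding gene on the opposite strand whose start lies within 1000 bases. Such neighbours were not counted over all genes. Members that rose had neighbours that rose in 4 pairs, fell in 7, were not called in 6 and were not tested in 2. Members that fell had neighbours that rose in 1, fell in 4, were not called in 1 and were not tested in 1. Of the 17 tested neighbours of members that rose, 23.5% rose and 41.2% fell, against 34.6% and 40.2% of all tested genes, so the share that fell is near the background. Of the 6 tested neighbours of members that fell, 16.7% rose and 66.7% fell. Of the 7 tested neighbours of members not called, 42.9% rose and 14.3% fell. These groups are small. Among the pairs with opposite directions, chosen after their values were seen, Mrpl21 (log2 fold change 1.55) starts 116 bases from Ighmbp2 (−3.24), Mrpl57 (1.00) 49 bases from Ska3 (−3.18), and Mrps18c (1.68) 29 bases from Helq (−1.94). Mrps27 (−1.15) and Ptcd2 (−2.56), 81 bases apart, both fell. Directions are on the TMM scale.

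Rows named as pseudogenes of members also held counts. Mrpl48-ps had 325 to 429 counts in controls and 393 to 509 in treated libraries and was called higher (log2 fold change 1.29, SE 0.21, edgeR adjusted p = 0.000191). Its log2 fold change was close in size to the 1.33 of Mrpl48, with which it shares 6.19% of the words of the Mrpl48 transcript.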
